A study of Homo sapiens with 6 samples.

Results

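The endoplasmic reticulum (ER) genes described here form a set of 39, of the 58735 genes in the table, that were taken by name for their roles in protein folding, in the unfolded protein response and in ER-associated degradation (ERAD). The set holds 4 sensors and signal carriers of the unfolded protein response, 8 chaperones and partner proteins, 4 members of the calnexin and calreticulin cycle, 6 oxidoreductases, 3 subunits of the translocation channel, 5 proteins that recognise misfolded glycoproteins and 9 ERAD components that act at the membrane. Expression had been measured by RNA sequencing in AZ-521 cells, a wild-type human line that the labels give as gastric cancer cells of stomach and that cell repositories now assign to a duodenal carcinoma. Cells grew in minimum essential medium with serum, pyruvate and amino acids, and 3 samples were exposed for 48 h to 10 µM platycodon D (PD), a saponin from the root of Platycodon, and 3 to its solvent DMSO alone (PD1 to PD3 and DMSO1 to DMSO3, by the numbers in their titles). The series asks what lies behind the activity of PD against these cells. One line, one dose and one time stand behind every value, and nothing in the labels says that the 3 samples of a group came from separate cultures, so the p-values rest on the spread between these 6 samples alone, and that spread may be technical.

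Secreted and membrane proteins enter the ER through the SEC61 channel, are glycosylated, and fold with the help of chaperones and of enzymes that form disulfide bonds. When unfolded proteins accumulate, the sensors PERK (gene EIF2AK3), IRE1 (ERN1) and ATF6 are released from the chaperone BiP (HSPA5) or bind unfolded protein. PERK then slows translation, IRE1 splices XBP1 mRNA, and cleaved ATF6 and spliced XBP1 protein raise chaperone and ERAD genes. ERAD carries proteins that fail to fold out to the proteasome, with the ubiquitin ligase SYVN1 at the membrane and the ATPase VCP pulling from the cytosol.

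ATF6 and XBP1 are known to act through short promoter sequences, so the promoters of the members were read first. Windows from 250 bases before to 50 after each transcript start were taken from RefSeq (build GRCh38.p14). Of the 39 members, 36 had a window, and PDIA3, DERL1 and DERL3 did not. Some genes have several windows (35116 windows for 27305 genes), and a gene counted if any of them held a match. Positions, distances and sequences are from the first window with a match, which need not lie at the outer end of the gene. The ER stress response element (ERSE), searched on both strands as CCAAT and CCACG with 9 free bases (N) between them, was in the windows of 25 of all 27305 genes (0.0916%) and of 8 of the 36 members (22.2%). A shorter form, ERSE-II, searched as ATTGG and CCACG with 1 free base between them, was in 19 genes (0.0696%) and in 3 members (8.33%). The core of the element bound by spliced XBP1 (UPRE core, TGACGTGG) was in 253 genes (0.927%) and in 4 members (11.1%), HYOU1, TXNDC5, UBE2J1 and VCP, and the one in HYOU1 overlaps an ERSE-II. Among the tested genes with a window the shares were 0.169% for ERSE, 0.147% for ERSE-II and 1.23% for the UPRE core. The members were taken by name for roles in this response, so their higher share is no independent finding and was not tested. Only exact matches were counted. A match describes letters in the window and is not a measured site.

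The matches to ERSE and ERSE-II are shown because the genes that hold them include members that rose, fell or did not pass after PD. Capitals mark the fixed letters and lower case the free ones, 5′ to 3′ on the strand that carries the motif.
HSPA5 ERSE at chr9:125241391-125241409: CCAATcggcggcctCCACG
HSP90B1 ERSE at chr12:103930216-103930234: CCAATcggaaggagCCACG
HSP90B1 ERSE at chr12:103930321-103930339: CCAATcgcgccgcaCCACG
CRELD2 ERSE at chr22:49918554-49918572: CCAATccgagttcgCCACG
CALR ERSE at chr19:12938384-12938402: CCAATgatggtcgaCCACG
CANX ERSE at chr5:179698778-179698796: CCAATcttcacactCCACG
PDIA6 ERSE at chr2:10812853-10812871: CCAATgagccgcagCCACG
ERO1B ERSE at chr1:236282183-236282201: CCAATgaggcgggaCCACG
XBP1 ERSE at chr22:28800603-28800621: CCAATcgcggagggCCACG
HYOU1 ERSE-II at chr11:119057380-119057390: ATTGGaCCACG
HYOU1 ERSE-II at chr11:119057274-119057284: ATTGGaCCACG
SDF2L1 ERSE-II at chr22:21642114-21642124: ATTGGtCCACG
HERPUD1 ERSE-II at chr16:56932025-56932035: ATTGGgCCACG
Their first bases lay between 52 (XBP1) and 243 (ERO1B) bases before the start, and HSP90B1 and HYOU1 had a pair each. For 6 of these genes the surrounding promoter is given on the strand of the gene, from 250 bases before the start to 5 bases past the last match, with every match in capitals (CGTGG is the end of a motif on the other strand).
HSPA5 promoter, chr9:125241386-125241593, minus strand: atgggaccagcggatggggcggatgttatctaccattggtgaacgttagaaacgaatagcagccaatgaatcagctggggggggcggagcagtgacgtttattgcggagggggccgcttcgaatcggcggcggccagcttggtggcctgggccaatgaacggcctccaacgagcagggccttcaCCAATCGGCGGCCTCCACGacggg
CALR promoter, chr19:12938359-12938407, plus strand: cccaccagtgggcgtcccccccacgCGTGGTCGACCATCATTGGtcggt
XBP1 promoter, chr22:28800598-28800819, minus strand: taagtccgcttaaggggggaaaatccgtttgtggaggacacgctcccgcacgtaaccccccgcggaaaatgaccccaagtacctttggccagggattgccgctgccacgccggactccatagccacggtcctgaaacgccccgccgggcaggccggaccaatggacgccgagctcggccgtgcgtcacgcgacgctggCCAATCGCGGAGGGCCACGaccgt
HSP90B1 promoter, chr12:103930160-103930344, plus strand: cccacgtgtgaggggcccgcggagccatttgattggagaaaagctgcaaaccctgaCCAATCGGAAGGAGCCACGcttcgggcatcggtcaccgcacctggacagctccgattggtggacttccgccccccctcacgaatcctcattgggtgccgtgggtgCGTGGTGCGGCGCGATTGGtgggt
HYOU1 promoter, chr11:119057269-119057455, minus strand: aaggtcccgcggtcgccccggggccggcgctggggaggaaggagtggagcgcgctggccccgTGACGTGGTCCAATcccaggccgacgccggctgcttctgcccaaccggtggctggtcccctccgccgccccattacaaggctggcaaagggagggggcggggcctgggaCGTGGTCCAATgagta
HERPUD1 promoter, chr16:56931892-56932040, plus strand: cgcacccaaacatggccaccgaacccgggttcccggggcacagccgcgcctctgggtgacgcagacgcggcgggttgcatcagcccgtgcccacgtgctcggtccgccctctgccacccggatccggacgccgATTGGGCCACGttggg
HSPA5 and CALR are members whose RNA rose after PD, XBP1 one whose RNA fell, and HSP90B1, HYOU1 and HERPUD1 did not pass the test, as described next with their values.

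**Figure D1:**
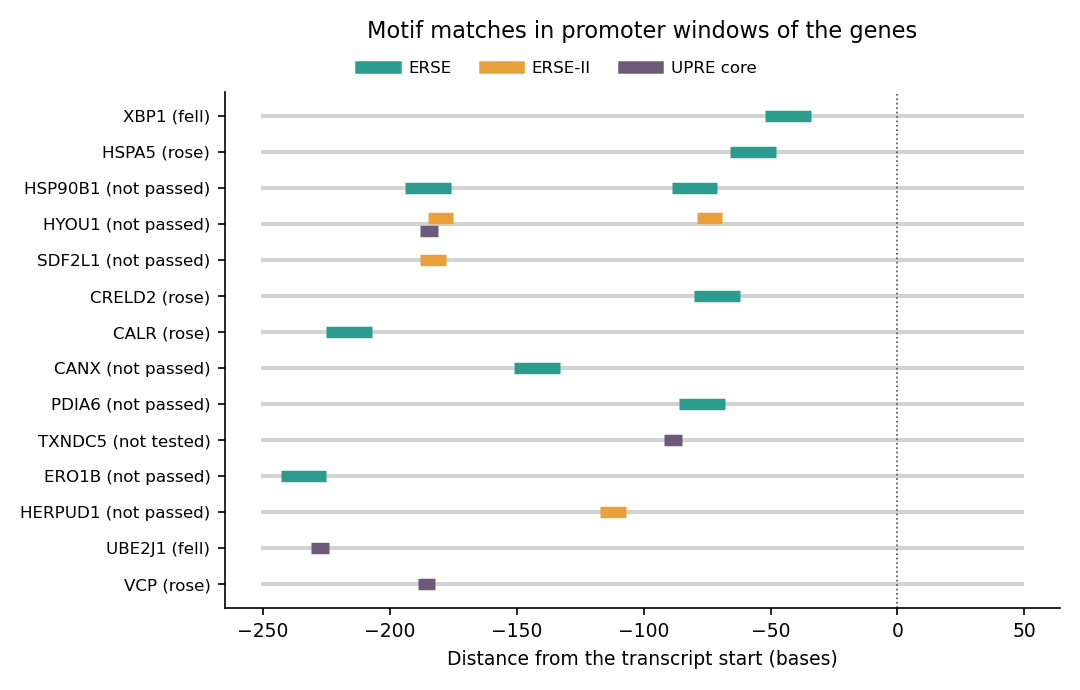
Matches to ERSE, ERSE-II and the UPRE core in the promoter windows of the 14 genes that hold one, by distance from the transcript start in bases (0 on the x axis); the label of each gene gives its call after PD. The ERSE nearest to the start is that of XBP1, which fell, followed by that of HSPA5, which rose.

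Values are FPKM, fragments scaled to gene length and library size, as deposited by the authors. Genes with at least 1 FPKM in at least 3 samples were tested with limma on log2(FPKM + 1), a scale that understates changes of low genes, with Benjamini-Hochberg adjusted p-values taken over the 13579 genes that were tested. "Rose" and "fell" stand for an adjusted p under 0.05, changes are PD minus DMSO on that log2 scale with a standard error (SE), and 37 of the 39 members were tested. Reads over genes ranged from 14915538 to 16341687 per sample. Correlations of log2 values were 0.969 to 0.985 within groups and 0.920 to 0.944 between them, and DMSO1 and PD3 deviated from their groups in the same direction with the GC content of genes (rank correlations of -0.64 and -0.52 across genes, against 0.02 to 0.61 in the other 4). Of 5 epithelial markers and 7 gastric markers none reached 1 FPKM in any sample, and KRT18, KRT19, TFF1, TFF2 and GKN1 were listed at 0 in all. Of 5 intestinal markers only CDX2 reached 1 FPKM, at 0.979 to 1.59. Of 4 mesenchymal markers only VIM reached 1 FPKM, at 72.4 to 107, and the other 3 (COL1A1, COL1A2 and PDGFRB) stayed under 1 FPKM in all samples. The summed level of the 4, nearly all of it VIM, was 96.4 to 108 FPKM in DMSO and 73.4 to 89.7 in PD. The 4 blood and endothelial markers stayed under 1 FPKM, with sums of 0 to 0.0408 in DMSO and 0.104 to 0.333 in PD. The part of these markers in the results was not tested. Gene coordinates are those of the table (GENCODE 29 on GRCh38). In bulk RNA, fewer cells expressing a gene and less RNA per cell cannot be told apart.

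After PD, 9 of the 37 tested members rose (24.3%, where 14.3% of all genes tested rose) and 3 fell (8.11%, against 12.7%). Those that rose were HSPA5, CRELD2, CALR, ERO1A, EIF2AK3, EDEM1, SYVN1, DERL1 and VCP, and those that fell were XBP1, UBE2J1 and SELENOS. None reached a 2-fold change, which 2.84% of all genes tested did upward and 0.979% downward; ERO1A came closest with a fold of 1.93 between mean FPKM. All 3 PD samples lay above all 3 DMSO samples for 14 members (37.8%, against 22.5% of all genes tested) and below them for 5 (13.5%, against 21.9%), while 18 overlapped. The median change of the members was 0.15, with 26 above 0 and 11 below, beside a median of 0.0010 over all genes tested. HSPA5 and ERO1A passed in all 17 processing alternatives. With the replicate number as a block they were the only members that passed (5.41% rose and 0% fell, against 8.02% and 5.56% of all genes). With DMSO2, DMSO3 or PD2 left out, 3, 3 and 2 members rose (8.11%, 8.11% and 5.41%, where 9.15%, 9.56% and 8.42% of all genes did), so the share of members that rose was then not above that of all genes. With any 1 sample left out 0 to 2 members fell (0% to 5.41%, against 6.33% to 12.2% of all genes). In those fits the changes of the 12 called members stayed within 1.28 times of the reported ones. None of the 12 overlapped between groups, so their sign could not turn when 1 sample was left out. The fits also share most of their samples, so that range is no independent support for the calls. Without DMSO1 and PD3 together, 11 rose and 4 fell (29.7% and 10.8%, against 17.7% and 15.9% of all genes). With every sample scaled to equal read totals, which moved the median of all genes by -0.10 on the log2 scale, 5 members rose and 5 fell (13.5% each). Of all genes 1407 and 2812 did (10.4% and 20.7%), against 1947 and 1731 as reported. The median change of the members was then 0.031, with 19 above 0 and 18 below, beside -0.10 over all genes. At a mean of at least 5 FPKM, 7 members rose and 3 fell (21.2% and 9.09%, against 17.0% and 13.0% of all genes). With quantile scaling 8 members rose and 3 fell (21.6% and 8.11%, against 13.5% and 15.4% of all genes). With upper quartile scaling 9 rose and 3 fell (24.3% and 8.11%, against 13.2% and 14.8%).

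**Figure D2:**
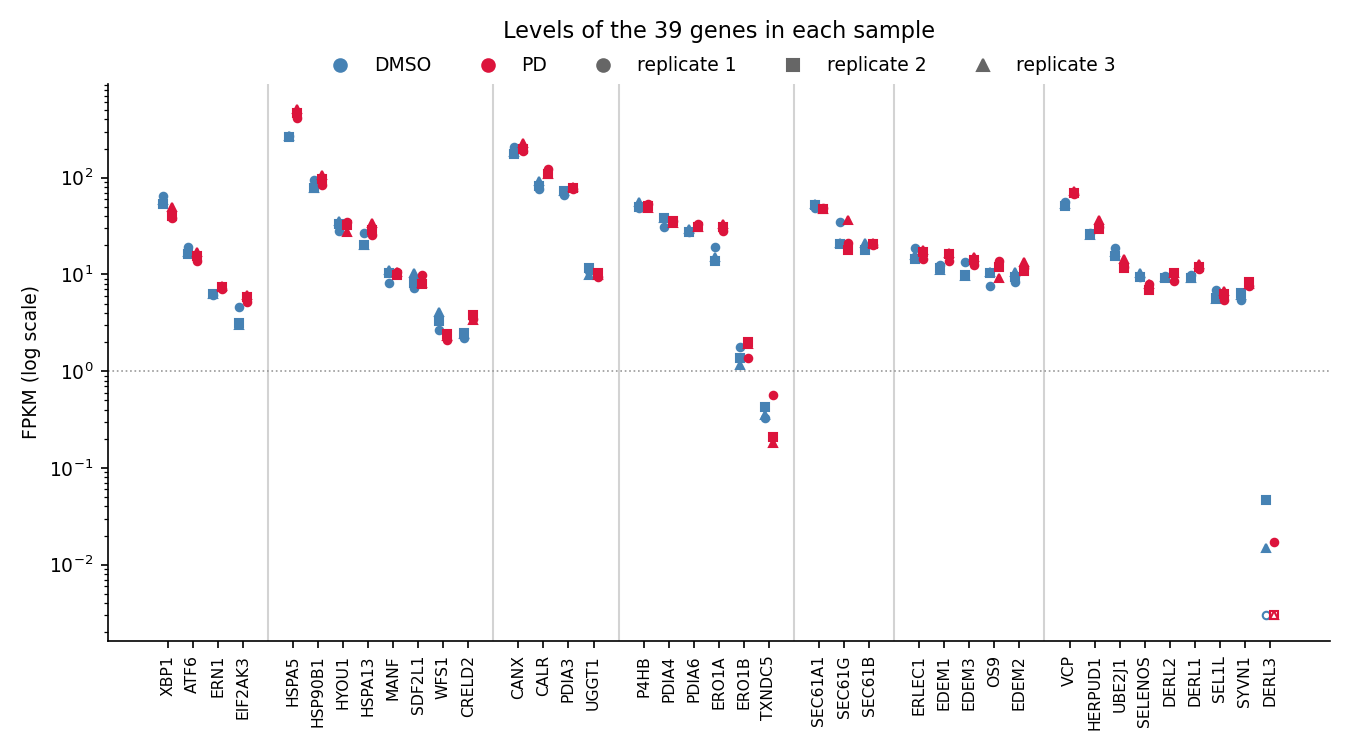
FPKM of the 39 genes in each of the 6 samples on a log axis, grouped by role from sensors at the left to membrane ERAD at the right, with DMSO in blue, PD in red and the symbol giving the replicate. Open symbols at the bottom stand for values of 0 and the dotted line for 1 FPKM; HSPA5 is the highest in both groups, and TXNDC5 and DERL3 lie under the line.

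Levels spanned a wide range. Per length, HSPA5 was the most abundant member in both groups, at 268 ± 6.04 FPKM (SD, n = 3) in DMSO, above 99.6% of the genes tested, followed by CANX at 189 ± 16.9, CALR at 84.2 ± 8.14 and HSP90B1 at 83.7 ± 9.99. CALR and HSP90B1 do not differ beyond their spread. The median of the 37 tested members was 16.3 FPKM in DMSO, where the median gene tested stood at 5.83. At the other end ERO1B was at 1.44 ± 0.328 FPKM, TXNDC5 at 0.182 to 0.564 over all samples, and DERL3 at 0 to 0.0463, so the last 2 were not tested. TXNDC5 is a disulfide isomerase and DERL3 a relative of DERL1 known from secretory cells. Summed over the 39 members, FPKM came to 1337, 1248 and 1308 in DMSO and to 1510, 1577 and 1703 in PD, and HSPA5 alone made up 20.4%, 20.9% and 20.6% of that sum in DMSO and 27.5%, 29.6% and 29.9% in PD. The PD samples were thus higher in both the sum and the HSPA5 share, with no overlap. The sum holds HSPA5 itself and depends on the deposited scaling between samples. Divided by the reads over genes, the FPKM denominators were 1.03 to 1.10 in DMSO and 0.947 to 1.00 in PD. A larger denominator lowers FPKM. Sums without HSPA5 or on equal totals were not taken.

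Of the 4 sensors and signal carriers, 1 rose and 1 fell (25% each, against 14.3% and 12.7% of all genes tested). The one that rose was a sensor, and the mRNA of the factor downstream of IRE1 fell. EIF2AK3, which encodes PERK (chromosome 2, 88556741 to 88627576), was at 4.65, 3.16 and 3.03 FPKM in DMSO and at 5.21, 5.88 and 6.10 in PD. It rose by 0.56 ± 0.15 (SE; adjusted p = 0.0283, limma), with all PD samples higher although DMSO1 stood near the lowest of them. XBP1, the transcription factor whose mRNA IRE1 splices (chromosome 22, 28794555 to 28800597), was at 65.4, 53.1 and 58.9 FPKM in DMSO and at 38.5, 40.5 and 49.7 in PD. It fell by 0.46 on the log2 scale (SE 0.13, adjusted p = 0.0342, limma), the groups did not overlap, and PD3 was the nearest to DMSO. The gene-level value does not separate spliced from unspliced XBP1 mRNA, and the processed copy XBP1P1 was at 1.05 FPKM in DMSO and 1.84 in PD. EIF2AK3 did not pass without DMSO2, DMSO3, PD1, PD2 or PD3 (adjusted p = 0.0905, 0.0918, 0.0510, 0.0911 and 0.0665, limma) or with no filter on low genes (0.0822). XBP1 did not pass without DMSO1, DMSO3, PD1 or PD2 (0.0730, 0.0919, 0.107 and 0.115) or with no filter (0.0857).

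The other sensors did not pass. ERN1, the gene of IRE1, was at 6.06, 6.29 and 6.23 FPKM in DMSO and at 6.99, 7.38 and 7.53 in PD, a narrow range in each group with every PD sample higher (change 0.21 ± 0.08 SE, adjusted p = 0.0936, limma). ATF6 was at 19.4, 16.5 and 17.1 FPKM in DMSO and at 13.7, 15.4 and 17.0 in PD, where PD3 lay within the DMSO range (change -0.19 ± 0.11 SE, adjusted p = 0.236). ERN1 passed with samples weighted by their quality (adjusted p = 0.0280, limma), and ATF6 passed downward with equal read totals (0.0387). The ratio of ERN1 to ATF6 within a sample was 0.313, 0.382 and 0.364 in DMSO and 0.511, 0.478 and 0.442 in PD, without overlap. Across 12 such ratios, fixed pairs of related members, an exact two-sided permutation test of 3 samples against 3 cannot go below p = 0.1, which was reached here (adjusted over the 12 pairs, 0.24).

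Of the 8 chaperones, 2 rose and 0 fell (25% and 0%, against 14.3% and 12.7% of all genes tested), and 6 did not pass. HSPA5, the ER-resident HSP70 chaperone BiP (chromosome 9, 125234853 to 125241330), was at 273, 261 and 270 FPKM in DMSO and at 415, 467 and 509 in PD. The DMSO samples were close together and every PD sample was far above them, so that HSPA5 rose by 0.78 ± 0.10 (SE; adjusted p = 0.00249, limma), a fold of 1.73 between mean FPKM. With quantile scaling the rise was 0.37 (adjusted p = 0.0167, limma). CRELD2, a stress-induced secreted partner of disulfide isomerases (chromosome 22, 49918167 to 49927540), was at 2.18, 2.51 and 2.42 FPKM in DMSO and at 3.47, 3.79 and 3.36 in PD. It rose by 0.43 ± 0.10 (SE; adjusted p = 0.0170, limma) without overlap. CRELD2 did not pass without DMSO3 (0.0553) or PD2 (0.0712), or with a replicate block (0.0694).

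HSP90B1 (GRP94, the ER member of the HSP90 family) was at 95.2, 77.9 and 78.0 FPKM in DMSO and at 83.6, 96.6 and 106 in PD, where the groups overlapped because DMSO1 lay between PD1 and PD2 (change 0.19 ± 0.13 SE, adjusted p = 0.310, limma). The ratio of HSPA5 to HSP90B1 was 2.86, 3.35 and 3.46 in DMSO and 4.96, 4.83 and 4.79 in PD (exact permutation p = 0.1, adjusted 0.24). HYOU1 (a large HSP70 relative and nucleotide exchange factor), SDF2L1 (a partner of the DNAJ co-chaperones) and MANF (a secreted stress protein) had changes of -0.03, 0.02 and 0.07 with overlapping groups. HSPA13, an HSP70-like protein of the microsomes, had a change of 0.37 ± 0.15 (SE; adjusted p = 0.110, limma). It was at 27.1, 19.9 and 20.1 FPKM in DMSO and at 25.3, 28.5 and 33.8 in PD, so that DMSO1 lay among the PD samples. WFS1, an ER membrane protein mutated in Wolfram syndrome, was at 2.70, 3.27 and 4.10 FPKM in DMSO and at 2.12, 2.45 and 2.31 in PD, below in every sample (change -0.39 ± 0.14 SE, adjusted p = 0.0687, limma). Without DMSO1 both passed, HSPA13 upward (adjusted p = 0.0319, limma) and WFS1 downward (0.0295). With a correction for GC content, chosen after seeing the data, HSPA13 (0.00233), HSP90B1 (0.0409) and WFS1 (0.0213) passed.

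In the calnexin and calreticulin cycle, which holds glycoproteins until they are folded, 1 of 4 members rose (25%, against 14.3% of all genes tested). It was the soluble lectin, and the other 3 members did not pass. CALR (calreticulin, chromosome 19, 12938578 to 12944489) was at 77.3, 82.0 and 93.2 FPKM in DMSO and at 123, 110 and 108 in PD. It rose by 0.43 ± 0.10 (SE; adjusted p = 0.0222, limma) without overlap. CANX, its membrane-bound relative calnexin, was at 208, 175 and 185 FPKM in DMSO and at 191, 200 and 226 in PD, with overlap (change 0.12 ± 0.11 SE, adjusted p = 0.456, limma). The ratio of CALR to CANX was 0.371 to 0.504 in DMSO and 0.477 to 0.644 in PD (exact permutation p = 0.2, adjusted 0.3). PDIA3, the disulfide isomerase that works with both lectins, was at 66.8 to 72.4 FPKM in DMSO and 75.7 to 80.4 in PD, higher in every PD sample (change 0.15, adjusted p = 0.207, limma), and UGGT1, which tags unfolded glycoproteins for another round, had a change of -0.11 with overlap. Reads of PDIA3 may be shared with its copy PDIA3P1, at 5.27 FPKM in DMSO and 5.21 in PD. CALR did not pass without DMSO2, PD1 or PD2 (adjusted p = 0.0800, 0.0755 and 0.0647, limma), with equal totals (0.0798), with quantile scaling (0.0547) or with no filter (0.0580).

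Of the 6 oxidoreductases 5 were tested and 1 rose (20%, against 14.3% of all genes tested), with the largest change of all members. ERO1A, the oxidase that feeds disulfide bonds into the isomerases (chromosome 14, 52639916 to 52695900), was at 19.1, 13.8 and 15.0 FPKM in DMSO and at 28.2, 31.2 and 33.2 in PD. Every PD sample was well above the highest DMSO sample, and ERO1A rose by 0.92 ± 0.13 (SE; adjusted p = 0.00316, limma). Its paralog ERO1B was at 1.80, 1.38 and 1.15 FPKM in DMSO and at 1.36, 1.99 and 1.93 in PD, with overlap (change 0.18 ± 0.15 SE, adjusted p = 0.428, limma). The ratio of ERO1A to ERO1B was 10.6, 9.98 and 13.1 in DMSO and 20.7, 15.7 and 17.2 in PD, without overlap (exact permutation p = 0.1, adjusted 0.24). The isomerases that ERO1A oxidises had smaller differences. P4HB, the classical protein disulfide isomerase and the most abundant member of the group per length, was at 48.6, 49.6 and 55.6 FPKM in DMSO and at 54.1, 50.7 and 48.4 in PD (change -0.0034 ± 0.092 SE, 95% interval -0.22 to 0.21). The values of the 2 groups lie in one range. PDIA4 had a change of -0.02, and PDIA6 one of 0.16 with every PD sample higher (adjusted p = 0.892 and 0.199, limma).

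**Figure D3:**
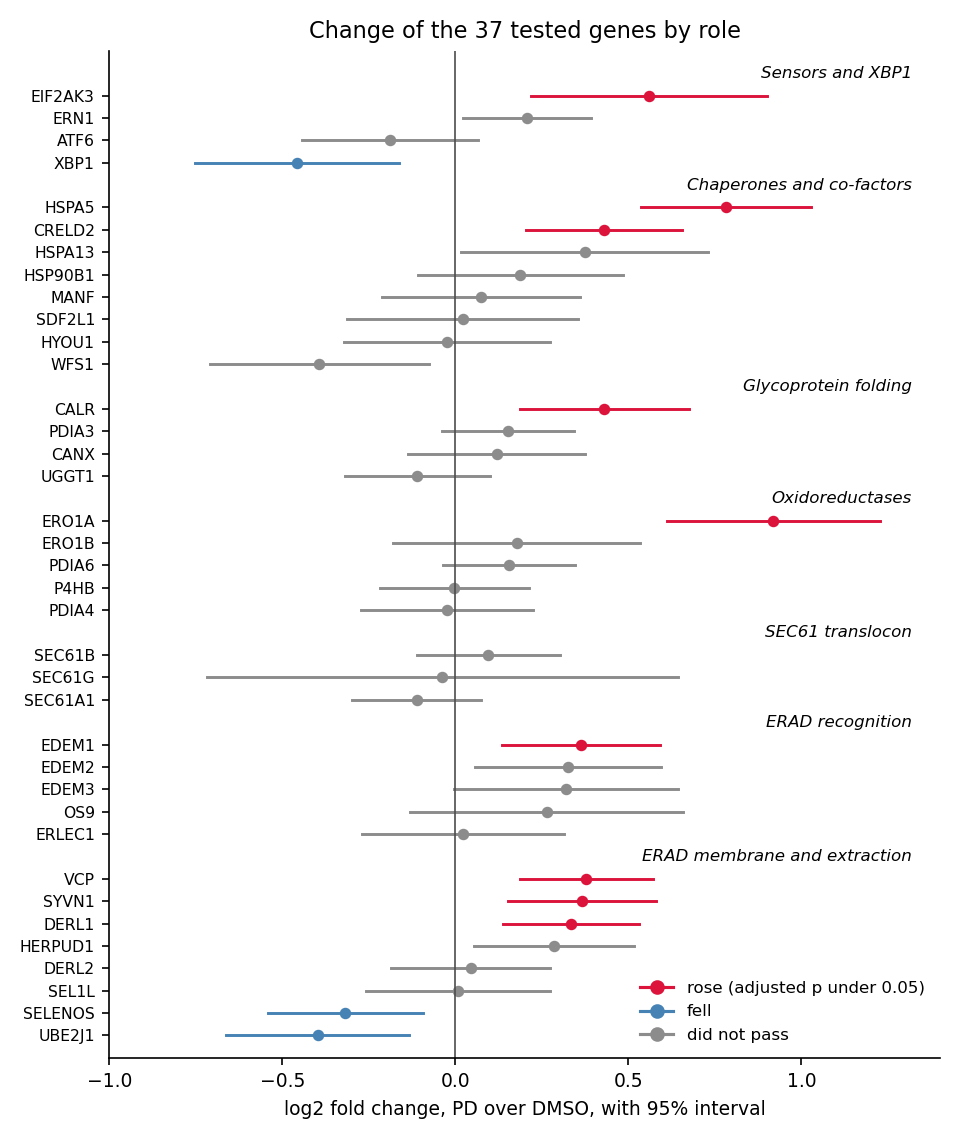
Change of each of the 37 tested genes, PD minus DMSO on the log2 scale, with its 95% interval, ordered within each role; red genes rose, blue genes fell and grey ones did not pass. ERO1A and HSPA5 lie farthest to the right, and SEC61G has the widest interval.

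None of the 3 subunits of the SEC61 translocation channel passed. SEC61A1, the pore subunit, was at 48.8, 52.7 and 53.9 FPKM in DMSO and at 48.4, 47.6 and 47.6 in PD, lower in every PD sample by a margin smaller than the spread of DMSO (change -0.11 ± 0.08 SE, adjusted p = 0.337, limma). SEC61B was at 17.8 to 20.9 FPKM in DMSO and 20.1 to 21.1 in PD (change 0.09, adjusted p = 0.460). SEC61G was at 34.8, 20.6 and 21.1 FPKM in DMSO and at 21.1, 18.0 and 36.6 in PD. In SEC61G, whose transcript has a GC content of 36.1%, DMSO1 and PD3 stood apart from the other 4 samples, which lay between 18.0 and 21.1 FPKM. These are also the samples that deviated with GC content. The change of SEC61G was -0.04 ± 0.29 (SE), the widest error among the members tested, and 0.02 with the GC correction.

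ERAD begins when mannose-trimming enzymes and lectins mark a glycoprotein as misfolded. Of the 5 genes of this step 1 rose (20%, against 14.3% of all genes tested). All 5 changes were above 0, where the median over all genes tested was 0.0010. EDEM1, which accelerates the degradation of misfolded glycoproteins (chromosome 3, 5187646 to 5219957), was at 12.6, 11.8 and 11.2 FPKM in DMSO and at 13.9, 16.1 and 16.7 in PD. It rose by 0.36 ± 0.10 (SE; adjusted p = 0.0317, limma) without overlap. Its relatives had changes of similar size and did not pass. EDEM2 was at 8.41 to 10.5 FPKM in DMSO and 10.9 to 13.5 in PD (change 0.33 ± 0.11 SE, adjusted p = 0.0724, limma), without overlap. EDEM3 was at 13.4, 9.93 and 9.55 FPKM in DMSO and at 12.5, 14.0 and 15.0 in PD (change 0.32 ± 0.14 SE, adjusted p = 0.129), where DMSO1 lay among the PD samples. EDEM3 passed without that sample (adjusted p = 0.0218, limma) and with the GC correction (0.00541). Ratios of EDEM1 to EDEM2 and to EDEM3 overlapped between groups (exact permutation p = 1 for both). Of the lectins that hand substrates to the ligase, ERLEC1, the most abundant of the step per length, was at 18.8, 14.4 and 15.7 FPKM in DMSO and at 14.6, 17.0 and 18.1 in PD (change 0.02, adjusted p = 0.917, limma), and OS9 was at 7.57, 10.3 and 10.5 in DMSO and at 13.6, 11.9 and 9.19 in PD (change 0.26, adjusted p = 0.284). Both overlapped between groups. EDEM1 did not pass without DMSO2, DMSO3, PD2 or PD3 (adjusted p = 0.0969, 0.110, 0.111 and 0.0711, limma), with equal totals (0.0662) or with no filter (0.0604).

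At the membrane the 8 tested ERAD components split: 3 rose and 2 fell (37.5% and 25%, against 14.3% and 12.7% of all genes tested). VCP, the cytosolic ATPase that extracts ubiquitinated proteins (chromosome 9, 35056064 to 35073249), was at 56.4, 51.2 and 53.1 FPKM in DMSO and at 68.3, 68.8 and 72.6 in PD. It rose by 0.38 ± 0.08 (SE; adjusted p = 0.0151, limma) with tight, separate groups. SYVN1, the ubiquitin ligase HRD1 (chromosome 11, 65121780 to 65134533), was at 5.40, 6.42 and 6.07 FPKM in DMSO and at 7.65, 8.33 and 7.90 in PD. DERL1, a channel-like protein that binds VCP, was at 9.82, 9.14 and 9.30 FPKM in DMSO and at 11.5, 12.0 and 12.9 in PD. Neither gene overlapped between groups, and they rose by 0.37 ± 0.09 and 0.33 ± 0.08 (SE; adjusted p = 0.0253 and 0.0258, limma). Part of the SYVN1 exons, 7.24%, lies under exons of FAU on the same strand, a more abundant gene at 63.3 FPKM in DMSO and 59.7 in PD, and 6.48% lies under MRPL49 on the other strand (33.2 and 28.1 FPKM). Exons of TBC1D31 on the other strand (2.17 and 1.56 FPKM) overlap 5.59% of those of DERL1. The handling of shared reads is not stated in these sources.

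UBE2J1 and SELENOS fell. UBE2J1, the membrane-anchored ubiquitin-conjugating enzyme of ERAD (chromosome 6, 89326625 to 89352848), was at 18.6, 15.6 and 17.0 FPKM in DMSO and at 11.9, 11.7 and 14.5 in PD. It fell by 0.40 on the log2 scale (SE 0.11, adjusted p = 0.0379, limma) without overlap, PD3 being the nearest to DMSO. SELENOS, the selenoprotein that recruits VCP to the membrane (chromosome 15, 101270817 to 101277500), was at 9.39, 9.36 and 10.4 FPKM in DMSO and at 8.06, 6.83 and 7.92 in PD. It fell by 0.32 on the log2 scale (SE 0.10, adjusted p = 0.0451, limma), again without overlap. SEL1L, the adaptor that stabilises SYVN1, was at 6.90, 5.74 and 5.62 FPKM in DMSO and at 5.40, 6.25 and 6.71 in PD (change 0.01, adjusted p = 0.966, limma), with overlap. The ratio of SEL1L to SYVN1 was 1.28, 0.893 and 0.925 in DMSO and 0.706, 0.751 and 0.850 in PD, lower in every PD sample (exact permutation p = 0.1, adjusted 0.24). DERL2, the close relative of DERL1, had a change of 0.04 with overlap (adjusted p = 0.774, limma), and the ratio of DERL1 to DERL2 was 1.02, 0.995 and 0.979 in DMSO and 1.34, 1.16 and 1.24 in PD (exact permutation p = 0.1, adjusted 0.24). HERPUD1, a short-lived scaffold of the ligase and a known target of the stress response, was at 27.1, 26.3 and 25.8 FPKM in DMSO and at 31.1, 29.8 and 36.7 in PD, above in every sample (change 0.29 ± 0.10 SE, adjusted p = 0.0693, limma; 0.0476 with the GC correction).

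The 5 ERAD calls at the membrane were lost in some fits with a sample left out. Over the 6 such fits, which share most of their samples, the changes ran from 0.35 to 0.42 for VCP, 0.31 to 0.41 for SYVN1 and 0.29 to 0.37 for DERL1. For UBE2J1 they ran from -0.49 to -0.34 and for SELENOS from -0.36 to -0.25. VCP did not pass without DMSO2, DMSO3 or PD2 (adjusted p = 0.0724, 0.0599 and 0.0558, limma). SYVN1 did not pass without DMSO2, DMSO3, PD1 or PD2 (0.0504, 0.0726, 0.0550 and 0.0951), with equal totals (0.0987) or with no filter (0.0500). DERL1 did not pass without DMSO2, DMSO3, PD2 or PD3 (0.0978, 0.0887, 0.0834 and 0.0567) or with equal totals (0.0587, change 0.22). UBE2J1 did not pass with DMSO1, DMSO2, DMSO3, PD1 or PD2 left out (0.0805, 0.0596, 0.102, 0.113 and 0.131) or with no filter (0.0828). SELENOS did not pass with any 1 of the 6 samples left out (0.0594 to 0.152) or with no filter (0.0805).

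**Figure D4:**
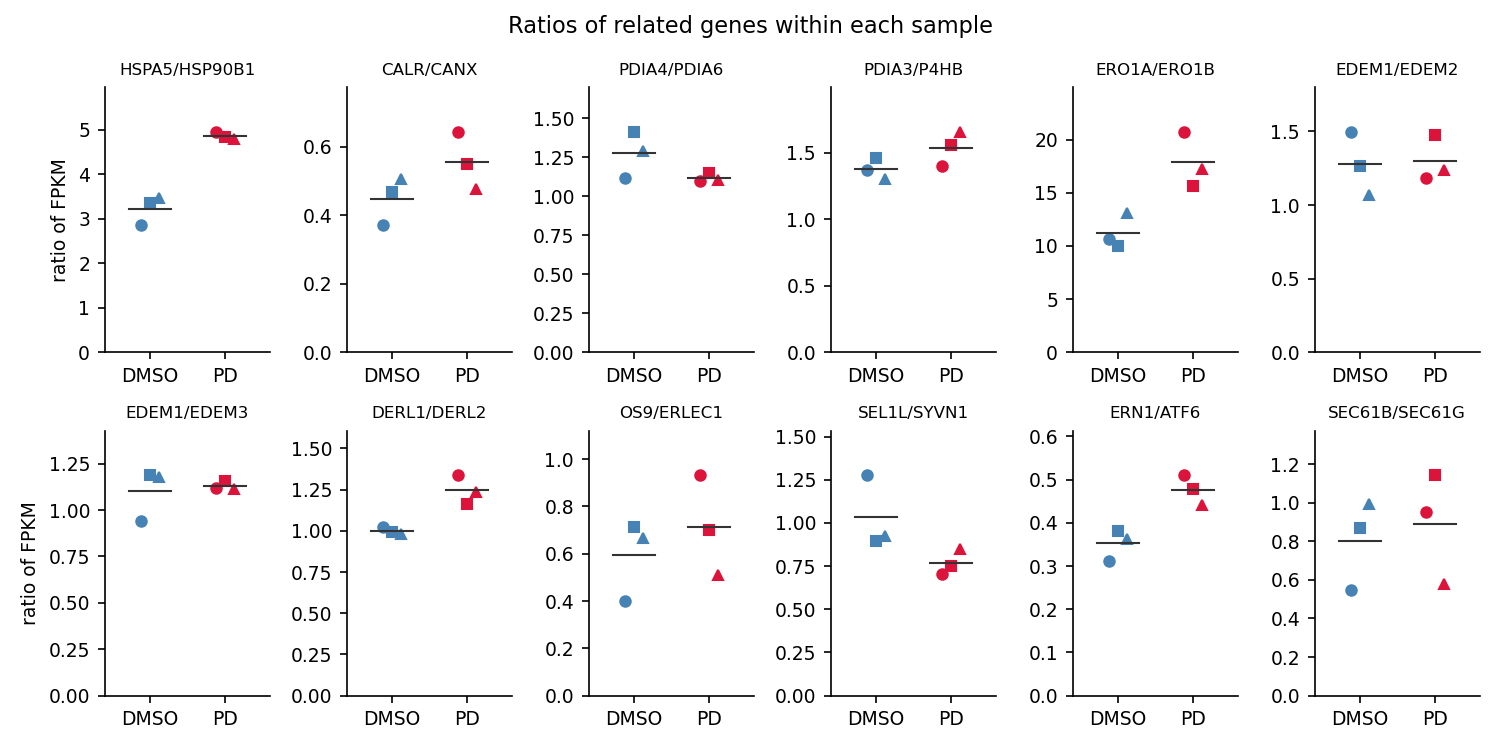
Ratios of FPKM of 12 pairs of related genes within each sample, with DMSO in blue, PD in red, circles, squares and triangles for replicates 1 to 3 and a line at the mean of each group (n = 3); each y axis starts at 0. The groups are separate for 5 pairs, among them HSPA5/HSP90B1 and ERO1A/ERO1B.

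The 12 fixed ratios compare relatives inside one sample, where the scaling between samples cancels. The groups did not overlap in 5 of them: HSPA5 to HSP90B1, ERO1A to ERO1B, DERL1 to DERL2 and ERN1 to ATF6 were higher in PD, and SEL1L to SYVN1 was lower. The other 7 overlapped, among them PDIA4 to PDIA6 and PDIA3 to P4HB (exact permutation p = 0.2 for both, adjusted 0.3) and OS9 to ERLEC1 and SEC61B to SEC61G (p = 0.6 for both, adjusted 0.72). No ratio can pass this exact test with 3 samples a group. Of single genes tested, 22.5% lay above DMSO in every PD sample and 21.9% below. That share was not taken over ratios of other genes. The separate ratios with HSPA5, ERO1A, DERL1 or SYVN1 hold a gene called by itself, so they are no independent support for those calls.

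Set against the promoters, the calls fell on both sides. Over all genes tested, 14.3% rose and 12.7% fell. Of the 11 members with an ERSE or ERSE-II, 3 rose (HSPA5, CRELD2 and CALR), 1 fell (XBP1) and 7 did not pass, with changes of -0.46 to 0.78 and a median of 0.18. Of the 24 tested members with a window and neither element, 5 rose, 2 fell and 17 did not pass, with changes of -0.40 to 0.92 and a median of 0.06. HSPA5 and HSP90B1 both hold an exact ERSE, and had changes of 0.78 and 0.19. HSP90B1 holds a pair of exact matches, but copies with a changed letter were not counted, so the number of elements in the 2 genes is not compared. ERO1A, with the largest change, has neither element in its window. Of the 3 tested members with a UPRE core, VCP rose, UBE2J1 fell and HYOU1 did not pass.

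The rest of the ER pathway was read from a list of 90 further genes, 88 of them tested, of which 15 rose (17.0%, against 14.3% of all genes tested) and 6 fell (6.82%, against 12.7%), with a median change of 0.07. Among 20 other genes of the stress response, 5 rose and 4 fell (25% and 20%, against 14.3% and 12.7% of all genes tested). Those that rose were PPP1R15A, DDIT3, DNAJB9 and, named after their values were seen, ATF6B and DNAJB11. PPP1R15A, which encodes GADD34 and restores translation after PERK signalling, was at 59.0, 79.6 and 80.2 FPKM in DMSO and at 171, 151 and 130 in PD, and its rise of 1.04 ± 0.16 (SE; adjusted p = 0.00382, limma) was the one past 2-fold. DDIT3, the stress factor CHOP, was at 145, 136 and 141 FPKM in DMSO and at 210, 198 and 219 in PD and rose by 0.57 ± 0.09 (adjusted p = 0.00401). Both groups of samples were separate in either gene. ATF4, the factor translated when PERK is active, was at 240, 269 and 288 FPKM in DMSO and at 239, 225 and 242 in PD, with overlap (change -0.17, adjusted p = 0.250, limma). It passed downward with quantile scaling (0.00791) and with sample weights (0.0241). DNAJB9, the co-chaperone ERdj4 that binds IRE1, was at 8.51, 6.61 and 6.41 FPKM in DMSO and at 10.1, 11.8 and 16.1 in PD and rose by 0.73 (adjusted p = 0.0226, limma). It did not pass without DMSO2, DMSO3 or PD2 (0.0703, 0.0742 and 0.0624), with no filter (0.0725) or with a replicate block (0.0729).

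DNAJC1 (a membrane co-chaperone), CREB3 and CREB3L2 (membrane-bound transcription factors) and STC2 (a secreted protein induced by ER stress) fell by 0.49, 0.33, 0.33 and 0.33 on the log2 scale (adjusted p = 0.0145, 0.0320, 0.0234 and 0.0359, limma). DNAJC1 did not pass without DMSO3, PD1 or PD2 (0.0526 to 0.0570), CREB3 passed only without PD3 (0.0579 to 0.123 without another sample), CREB3L2 only without DMSO1 (0.0503 to 0.0891) and STC2 only without PD1 (0.0660 to 0.130). Among 19 tested oxidoreductases and folding enzymes 2 rose and 1 fell (10.5% and 5.26%, against 14.3% and 12.7% of all genes tested). FKBP11 and SELENOM, named after their values were seen, rose. TXNDC11 fell by 0.31 on the log2 scale (adjusted p = 0.0393, limma). With any sample but DMSO1 left out, its adjusted p was 0.0626 to 0.130 (limma). Of 14 tested genes of glycan transfer and trimming 1 rose (7.14%, below the share of all genes). DAD1, a subunit of the oligosaccharyltransferase, was at 131, 122 and 129 FPKM in DMSO and at 195, 175 and 230 in PD (rise of 0.64 ± 0.12 SE, adjusted p = 0.00801, limma). Of 17 translocation genes 1 rose (5.88%, also below the share of all genes), SEC61A2, named after its values were seen. This paralog of SEC61A1 was at 10.2, 9.93 and 9.82 FPKM in DMSO and at 14.1, 14.0 and 14.5 in PD, tight in each group and separate between them, and rose by 0.47 ± 0.08 (SE; adjusted p = 0.00500, limma) in all 17 alternatives.

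Among 18 further ERAD genes 6 rose and 1 fell (33.3% and 5.56%, against 14.3% and 12.7% of all genes tested). UFD1, which with NPLOC4 forms the adaptor that brings ubiquitinated substrates to VCP, was at 4.71, 5.20 and 5.05 FPKM in DMSO and at 7.88, 8.28 and 7.04 in PD and rose by 0.54 ± 0.09 (SE; adjusted p = 0.00620, limma). NPLOC4 itself, named after its values were seen, was at 17.5, 17.5 and 19.1 FPKM in DMSO and at 25.0, 23.6 and 21.3 in PD and rose by 0.35 ± 0.09 (adjusted p = 0.0289). Both were higher in every PD sample. NPLOC4 passed in 8 of 17 alternatives, UFD1 in all 17 and VCP in 13. SELENOS, which recruits VCP, fell, so genes that work with VCP went both ways. TMUB1, a ubiquitin-like membrane protein of ERAD, rose by 0.70 ± 0.20 (SE; adjusted p = 0.0392, limma) and passed in 8 of 17 alternatives, not without DMSO1, DMSO2, PD1 or PD2 (0.0554 to 0.116). NGLY1, which strips glycans from proteins that leave the ER, fell by 0.31 on the log2 scale (adjusted p = 0.0446, limma; 0.0880 to 0.149 with any sample but PD3 left out). The other ERAD genes that rose, named after their values were seen, were the conjugating enzyme UBE2G2, the ligase RNF5 and the VCP-binding FAF2, with folds of 1.39, 1.35 and 1.38 between mean FPKM (adjusted p = 0.0108, 0.00892 and 0.00606, limma).

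**Figure D5:**
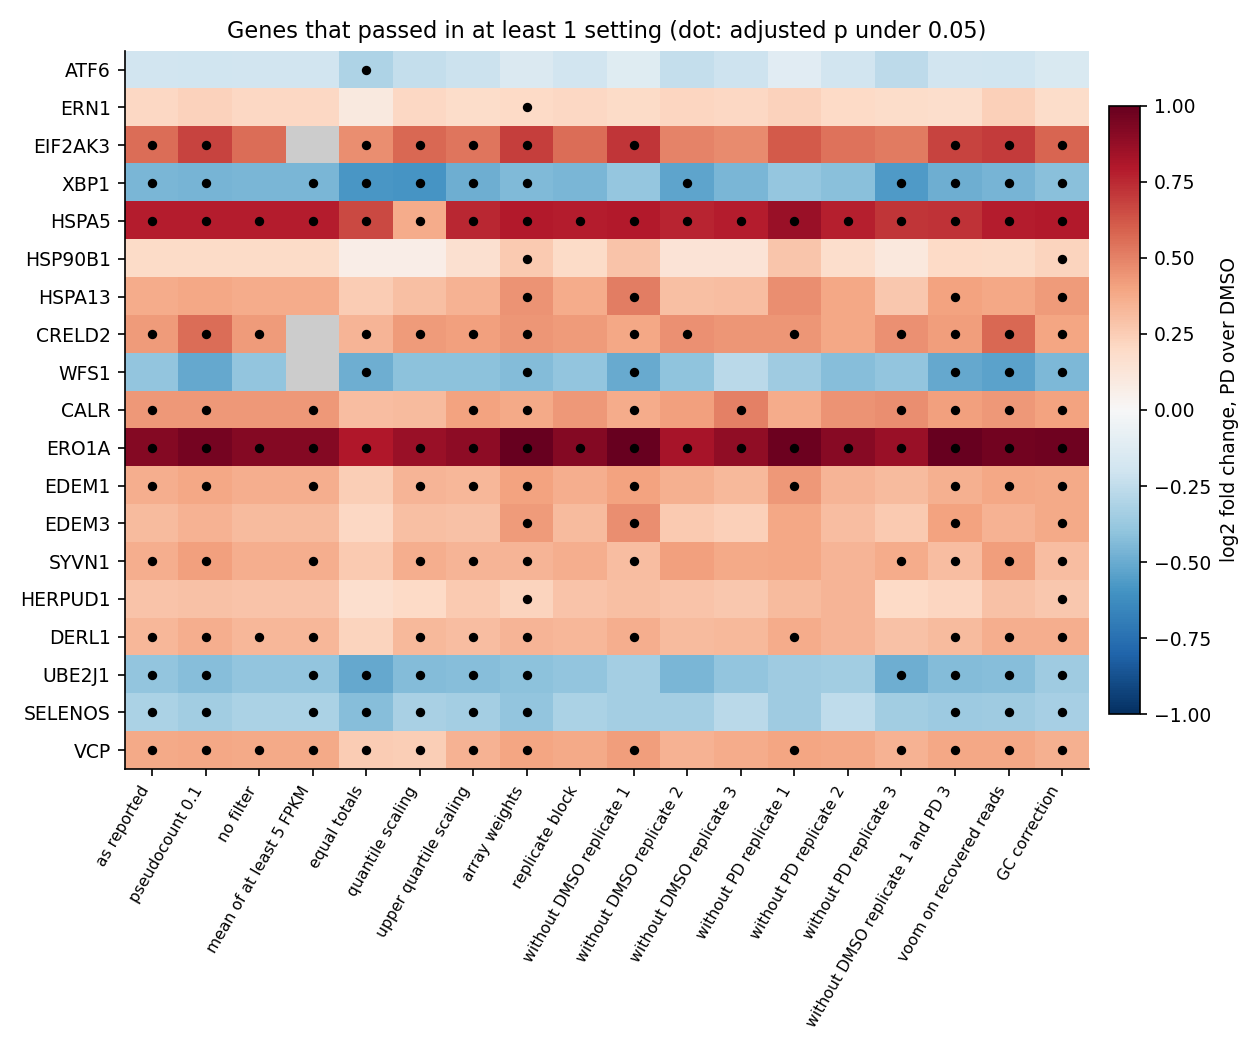
Change of the 19 members that passed in at least 1 of 18 fits, the reported one at the left and 17 alternatives, as colour on the log2 scale (PD over DMSO), with a dot where the adjusted p was under 0.05 and grey where the gene was not tested. Only HSPA5 and ERO1A carry a dot in every column.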

How the data were processed

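RNA of 6 samples of AZ-521 cells was sequenced with a stranded mRNA kit and paired reads, per the labels' protocols. The authors deposited one table of FPKM values with a gene length, with 1 column per sample; no source used here names the aligner, the counter or the use of strand. The builds in the submitters' processing notes are mouse builds, while the 58735 gene identifiers and coordinates in the table are those of the human GENCODE release 29. FPKM times length gave whole reads for 100% of values (tolerance 0.01), 14915538 to 16341687 per sample. Divided by the read total over genes, the FPKM denominators came to 1.03, 1.10 and 1.08 (DMSO1 to DMSO3) and 1.00, 0.997 and 0.947 (PD1 to PD3), a scaling already present in the deposit. Columns were matched to samples by group prefix and number.

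The test used log2(FPKM + 1) of genes with at least 1 FPKM in at least 3 samples. It was run in limma 3.58.1 (R 4.3.3) as a two-sided contrast of PD and DMSO with a trended variance prior and no covariate, with Benjamini-Hochberg adjustment over 13579 genes and a threshold of 0.05. The fit was also run on simulated reads with known changes. They were scaled to equal totals and held no deviation of samples with GC content, so that run cannot show how the fit handles those features. Ratios were taken within samples and compared by exact permutation (SciPy 1.17.1). Motifs were searched in 35116 RefSeq windows of GRCh38.p14. Protein sequences were not used here. The members and lists were chosen with earlier results of these data known. Values by sample are given for members past the threshold, the sensors and the most abundant member of each role, and for some others; of further ER genes the 6 largest rises and falls, DDIT3, ATF4 and PPP1R15A are named.

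Alternatives were a pseudocount of 0.1, no filter, a mean of at least 5 FPKM, 3 scalings, sample quality weights, a replicate block, each sample left out, DMSO1 and PD3 left out together, voom on the recovered reads and, chosen after seeing the data, a GC correction (loess, span 0.3).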

Additional observations from a re-analysis of the deposited data

How the results depend on the processing

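Of the 39 members, 37 could be tested, and the exact permutation test of a ratio cannot go below 0.1 with 3 samples a group. Several alternatives kept the counts of members within 1.5 times of those reported. They were the pseudocount of 0.1, a mean of at least 5 FPKM, quantile and upper quartile scaling, and voom on the recovered reads. Leaving out DMSO1 and PD3 together and the GC correction did so too. With the GC correction 13 members rose and 4 fell (35.1% and 10.8%, against 20.7% and 19.4% of all genes). With no filter 5 members rose and 0 fell (12.8% and 0%, against 4.48% and 3.32% of all genes). With equal totals 5 rose and 5 fell (13.5% each, against 10.4% and 20.7%). With sample weights 14 rose and 4 fell (37.8% and 10.8%, against 23.5% and 22.9%). ERN1, HSP90B1, HSPA13, EDEM3 and HERPUD1 were among those that rose with weights. WFS1 passed downward with equal totals (adjusted p = 0.0420, limma) and voom (0.0374). With single samples left out, 2 to 11 members rose (5.41% to 29.7%, against 8.42% to 13.8% of all genes). In those fits 0 to 2 fell (0% to 5.41%, against 6.33% to 12.2%), and both counts were lowest without PD2. Over all genes 1254 rose and 960 fell at a mean of at least 5 FPKM, 1075 fell with no filter, 2812 with equal totals and 2629 with the GC correction, and weights gave 3189 and 3112. With single samples left out 1144 to 1877 rose and 859 to 1657 fell. Of the other ER pathway genes, 8 rose and 2 fell with no filter (8.89% and 2.22%). With equal totals 17 fell (19.3%, against 20.7% of all genes), and with the GC correction 10 fell (11.4%, against 19.4%). Weights gave 25 and 15 (28.4% and 17.0%), and with single samples left out 8 to 15 rose and 0 to 5 fell. The cause of these shifts was not tested, also where fewer genes or samples were fitted. Deviations of samples from their group mean correlated at -0.39, 0.17 and -0.16 between same-numbered samples, and at -0.34 to 0.38 between the others. Deviations within a group cancel out, which ties these correlations to each other. What the shared numbers stand for was not tested. With a replicate block 2 members rose and 0 fell (5.41% and 0%, against 8.02% and 5.56% of all genes). The called members other than HSPA5 and ERO1A then had adjusted p-values of 0.0694 to 0.117 (limma). Over all genes 1089 rose and 755 fell, and of the other ER genes 6 and 0. With the half-motif CCACG alone, 28 members in place of 8 had a match, 77.8% of the 36 with a window, against 42.1% of all genes and 58.0% of those tested.

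Some changes that did not pass, and 3 ratios, reversed in sign. With equal totals they came to -0.090 for SDF2L1, -0.039 for MANF, -0.0037 for CANX, -0.022 for SEC61B, -0.094 for ERLEC1, -0.098 for SEL1L and -0.068 for DERL2, on a scale where the median of all genes moved by -0.10. Quantile scaling gave -0.18 for CANX and -0.024 for ERLEC1. Upper quartile scaling gave -0.0041 for SDF2L1, -0.0045 for ERLEC1 and -0.016 for SEL1L. Weights gave -0.088 for SDF2L1 and -0.055 for MANF, leaving out DMSO1 and PD3 together gave -0.048 for SDF2L1 and -0.071 for MANF, and the GC correction gave 0.016 for SEC61G. With single samples left out the values ran from -0.12 to 0.068 for HYOU1, -0.079 to 0.15 for SDF2L1, -0.050 to 0.16 for MANF, -0.045 to 0.055 for P4HB, -0.13 to 0.028 for PDIA4, -0.33 to 0.20 for SEC61G, -0.059 to 0.12 for ERLEC1, -0.052 to 0.089 for SEL1L, -0.0026 to 0.13 for DERL2, -0.091 to 0.15 for EDEM1 to EDEM2 (ratio), -0.068 to 0.10 for EDEM1 to EDEM3 (ratio) and -0.11 to 0.43 for SEC61B to SEC61G (ratio). The cause was not tested.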
